A study of Gallus gallus with 8 samples.

Results

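The genes described here encode the proteins of the cytosolic ribosome of the chick. They were chosen by symbol: RPL or RPS followed by a digit, or RPSA, RPLP0, RPLP1 or RPLP2. The RPS6K kinases and the names that hold L1 were left out, and so was RPS19BP1, which fits the letters but encodes a binding protein. In all, 66 such genes had transcripts among 14612 genes with transcripts, and 65 of them passed the filter on low counts, among 9062 genes tested. They were 36 RPL genes, 27 RPS genes and 3 P-stalk genes. RPL23, RPL24 and RPSA were not analysed here.

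The measurements were RNA sequencing of distal wing bud mesenchyme in 8 libraries. HH24 (3 libraries) and HH27 (3 libraries) were wild type and untreated, staged after Hamburger and Hamilton (HH). The study took the HH27 tissue from the host wing opposite the graft and the HH24 tissue from different embryos. HH24g (2 libraries) was the graft: distal mesoderm of HH20 donor embryos of the CMV-GFP genotype, stripped of its epithelium, slipped beneath the apical ectodermal ridge of a wild type HH24 wing and taken back out after 24 h. The CMV promoter drives GFP in all donor cells. All eggs were kept at 37 °C. The grafts thus had the age of HH24 cells in an HH27 host. HH24 is the tissue of the same nominal age and HH27 the tissue of the host's stage. Genotype, grafting, host and, against HH27, the age of the cells change together in HH24g, so their parts cannot be told apart. The study describes replicate experiments, with several tissue pieces pooled in each. The p-values measure only the spread between these pooled libraries, in which biological and technical parts cannot be told apart. The 3 comparisons below share libraries and are not independent.

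A ribosome is built from a large (60S) subunit with the RPL proteins and a small (40S) subunit with the RPS proteins, on a scaffold of ribosomal RNA. The P-stalk, made of RPLP0, RPLP1 and RPLP2, is the arm of the large subunit that recruits the factors of elongation. The mRNAs of ribosomal proteins share a pyrimidine-rich start, the TOP motif, through which growth signals set their translation together. Growing embryonic tissue spends much of its mRNA on these genes. In bulk tissue, fewer cells of a type and less RNA per cell cannot be told apart.

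Libraries held 287226 to 3274642 reads matched to genes, of which 4520 to 183869 belonged to ribosomal protein genes. HH24 replicate 2 stood apart. It had the lowest value of both ranges, and only 9.24% of its reads matched genes. The median ribosomal protein gene had 58 reads there, against 518 to 2464 in the other libraries. Matched reads made up 45.5% of HH24 replicate 1 and 53.3% of HH24 replicate 3. By replicate number, the HH27 libraries had 66.2%, 51.9% and 64.3%, the grafts 67.6% and 61.6%. All HH24 libraries were thus below both grafts, while HH27 replicate 2 was below HH24 replicate 3. Whether this difference bears on the ribosomal protein levels was not tested. The labelled tissue was checked with marker lists. All 6 mesenchyme markers passed the filter, with summed levels of 1598 to 1986 CPM in HH24, 2300 to 2318 CPM in HH27 and 2170 to 2668 CPM in HH24g. The sum hides a split: 3 were higher and 3 lower in HH27 against HH24, with log2 fold changes from -1.63 to 0.90. In HH24g against HH24 3 were higher and 3 lower too, from -0.91 to 0.55. The 5 myogenic markers did not pass the filter, with MYOG at 0 in every library and a summed level of at most 3.91 CPM. Levels are given as CPM, the counts of a gene relative to the library size after TMM scaling (trimmed mean of M-values), which lines up the bulk of genes between libraries.

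Ribosomal protein mRNAs were among the most abundant of these cells. Levels between genes are given per length, as reads per effective transcript length, brought to the same total in each library. On that scale, and without HH24 replicate 2, the median level of the 65 genes was 1961, above 99.4% of all genes tested, and 59 of the 65 exceeded 1000. The middle of the list was narrow: the 10th and 90th percentiles were 1034 and 2901. Over all 8 libraries the highest mean level belonged to RPL39L (3367, lowest library 1197, highest 4402), which in the gene table also carries the name RPL39, a protein of the exit tunnel. RPS3A (mean level 2866) and RPS12 (2838), both of the small subunit, were also among the 5 highest. RPL35A (mean level 190) and RPS27L (34.3) lay far below the rest. RPS27L is a paralog of RPS27 and in human cells a target of p53. RPL3L, a paralog of RPL3 that in mammals is used in striated muscle, was listed at 0 in 7 libraries, which allows up to 0.779 to 23.4 CPM there (3 counts per library, counting error only), and had 3 reads in HH24g replicate 1. Reads of paralogs such as RPS27 and RPS27L may be uncertain between them, which was not tested.

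The summed level was highest at HH27. Before TMM scaling, ribosomal protein genes held 4.09%, 1.57% and 4.44% of gene reads in HH24 replicates 1 to 3. In HH27 replicates 1 to 3 they held 5.50%, 5.83% and 5.61%, and in the 2 grafts 5.20% and 5.25%. On this scale the groups did not overlap, and the grafts lay between both stages. On other scales HH27 and the grafts overlapped: of all reads, matched or not, the genes held 3.03% in HH27 replicate 2 and 3.52% and 3.23% in the grafts, and of the per-length total 13.57% in both HH27 replicate 1 and HH24g replicate 1. After TMM scaling the sums were 4.30%, 3.52% and 4.30% in HH24, 4.76%, 4.99% and 4.78% in HH27, and 4.42% and 4.51% in HH24g. The means were 4.04% ± 0.448 (SD, n = 3) in HH24, 4.84% ± 0.130 (n = 3) in HH27 and 4.46% ± 0.0617 (n = 2) in HH24g. Without HH24 replicate 2 the HH24 mean was 4.30% (n = 2), still below both grafts. The size of the gap depended on the scaling: with no TMM factor the median of all genes moved to 0.49 (log2) in HH27 against HH24 and to 0.50 in HH24g against HH24, and relative to it the median ribosomal protein gene was 0.38 and 0.26 higher. With TMM the same 2 differences were 0.19 and 0.09. The TMM factor was 0.448 in HH24 replicate 2, 0.956 and 1.04 in HH24 replicates 1 and 3, and 1.16 to 1.18 in HH27 and HH24g. Before TMM scaling the HH24 mean was 3.37% (n = 3), and 4.27% (n = 2) without HH24 replicate 2. Of the per-length total, HH24 replicates 1 and 3 held 8.53% and 9.82%, against 13.43% to 15.40% across the HH27 and HH24g libraries.

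**Figure D1:**
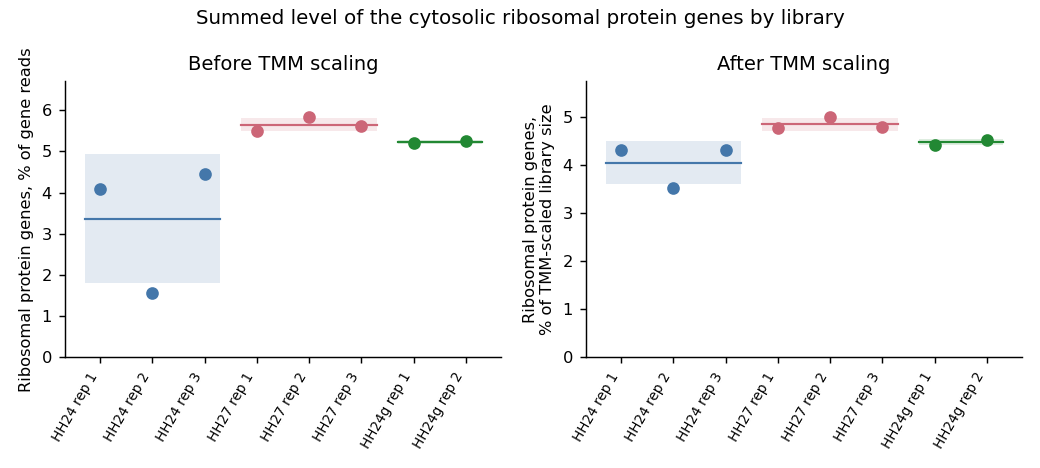
Share of reads held by the ribosomal protein genes in each of the 8 libraries, in percent of gene reads (left) and in percent of the TMM-scaled library size (right); points are libraries, lines group means and bands 1 SD. In both panels the 3 HH27 libraries are highest, and HH24 replicate 2 is lowest, at 1.57% and 3.52%.

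Both subunits gave the same order of groups. Large-subunit genes summed to 2.29% ± 0.168 (SD, n = 3) of TMM-scaled reads in HH24, 2.70% ± 0.103 (n = 3) in HH27 and 2.47% ± 0.0614 (n = 2) in HH24g. Small-subunit genes summed to 1.58% ± 0.270, 1.94% ± 0.0299 and 1.82% ± 0.00441 in these groups. Without HH24 replicate 2 the HH24 means were 2.38% ± 0.0311 and 1.74% ± 0.0242 (n = 2), closer to the grafts, and the order of the groups stayed. The P-stalk genes differed in this, with 0.176% ± 0.0148 in HH24, 0.195% ± 0.00305 in HH27 and 0.176% ± 0.00409 in HH24g, so that the graft mean was at the HH24 mean (0.183% ± 0.0107 in HH24 without replicate 2). RPLP0 carried that difference and is described below. Gene by gene, 48 of the 65 (73.8%) had group means in the order HH27, HH24g, HH24 from high to low, an order that 27.1% of all genes tested showed. Genes measured in the same 8 libraries are not independent of each other.

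HH27 was first compared with HH24, an earlier stage of the wing bud. The HH27 tissue came from embryos that carried a graft in the other wing, and the HH24 tissue from different embryos. Stage and this difference cannot be told apart. Of the 65 genes, 62 had a positive log2 fold change, with a median of 0.22 and a range of -0.14 to 0.53, while the median of all genes tested was 0.03. The large-subunit genes had a median of 0.20 (34 of 35 positive) and the small-subunit genes a median of 0.24 (26 of 27). None was called at an adjusted p-value under 0.05 with an absolute log2 fold change over 1, a rule that 1.07% of all genes passed. Without the fold limit 1 gene of the 65 passed, RPS12, against 1.78% of all genes, so in this fit the share passing (1.54%) was near the background. At an unadjusted p-value under 0.05, 32 were higher and none lower, while 7.22% of all genes were higher at that limit. That count was 19 without HH27 replicate 2 (7.04% of all genes) and 20 without HH24 replicate 3 (4.88% of all genes). The lowest HH27 library was above the highest HH24 library for 36 of the 65, against 13.7% of all genes. Without HH24 replicate 2 the median was 0.18, 60 of 65 were positive and none of the 65 passed the adjusted limit, against 92 of 9384 genes. There 43 did not overlap, a count that rises for every gene with fewer libraries (18.8% of all genes in that setting). DESeq2 passed 6 of the 65 (9.23%) with all libraries, against 4.31% of all genes, and 14 (21.5%) without HH24 replicate 2, against 4.62%. edgeR's quasi-likelihood test passed none in either, against 1.75% and 1.65% of all genes, with 25 and 31 of the 65 higher at an unadjusted p-value under 0.05, against 7.49% and 8.50%.

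RPS12 is a protein of the small subunit that in Drosophila takes part in the competition between cells with unequal ribosomal protein gene dose. Its gene is on chromosome 3 (assembly GRCg7b). It measured 762, 678 and 716 CPM in HH24 replicates 1 to 3, 909, 957 and 910 CPM in HH27 replicates 1 to 3, and 754 and 767 CPM in HH24g. All HH27 libraries were above all others, and both grafts lay among or next to the HH24 libraries. In limma voom it was higher in HH27 than in HH24 by 0.33 ± 0.06 (log2, SE, adjusted p 0.0388). It was lower in HH24g than in HH27, at -0.27 ± 0.06 (adjusted p 0.0377), and measured 0.06 ± 0.07 (adjusted p 0.780) between HH24g and HH24. Each call held in 7 of 22 alternatives, with adjusted p-values from 0.000255 to 0.307 for HH27 against HH24 and from 0.00113 to 1.000 for HH24g against HH27, and the direction held in all 22 for both. The first call was lost with any library left out (adjusted p 0.0787 without HH24 replicate 2), and the second with any but HH24 replicate 2 (adjusted p 0.0380 without it).

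The other high fold changes at this step rested on larger spreads. RPS15, a protein of the head of the small subunit (chromosome 28), measured 442, 327 and 455 CPM in HH24, 560, 733 and 630 CPM in HH27, and 517 and 539 CPM in HH24g. Its 3 groups did not overlap. The log2 fold change of HH27 against HH24 was 0.53 ± 0.13 (SE), the highest of the 65 genes, and did not pass the adjusted limit (adjusted p 0.0833). It passed in 4 of 22 alternatives.

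RPS21, another small-subunit protein (chromosome 20), measured 148, 93.6 and 130 CPM in HH24, 182, 213 and 184 CPM in HH27, and 177 and 183 CPM in HH24g. Here the grafts reached the HH27 libraries and were above all of HH24. The log2 fold change was 0.48 ± 0.12 (adjusted p 0.107) for HH27 against HH24 and 0.41 ± 0.13 (adjusted p 0.275) for HH24g against HH24. RPL37A (large subunit) had 0.46 ± 0.14 (adjusted p 0.178) and RPS14, whose human counterpart lies in the region lost in 5q- syndrome, 0.43 ± 0.17 (adjusted p 0.291) for HH27 against HH24. Both rested in part on HH24 replicate 2: RPL37A measured 412, 218 and 400 CPM in HH24, and RPS14 514, 226 and 487 CPM. Without that library the log2 fold changes were 0.36 and 0.29.

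**Figure D2:**
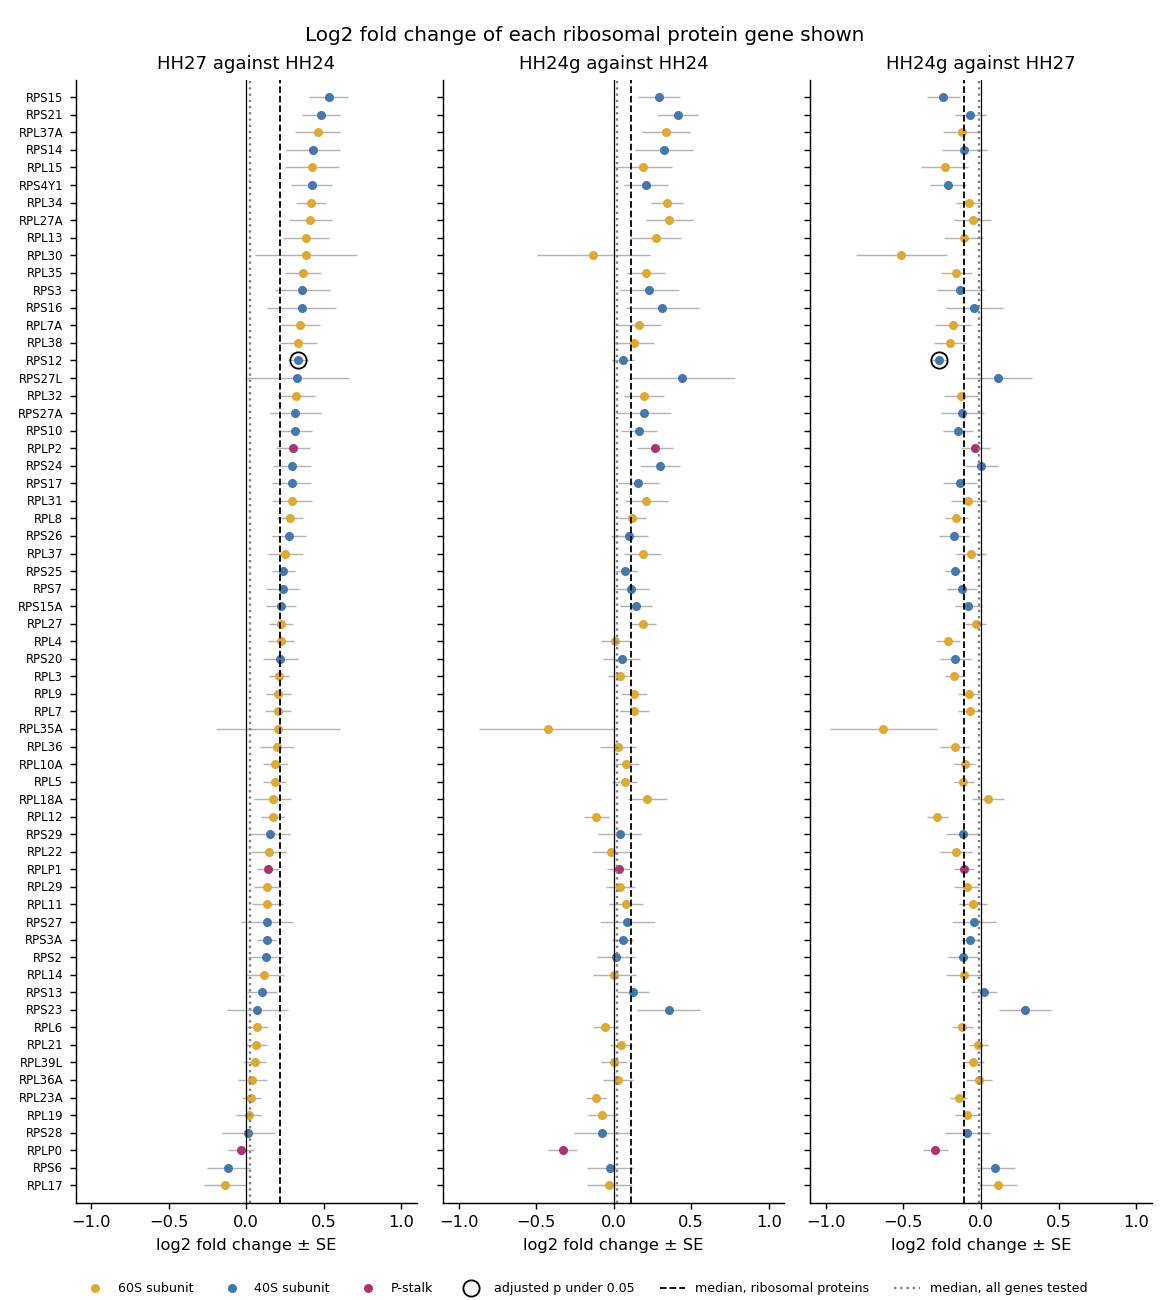
Log2 fold change (x axis) of 63 of the 65 ribosomal protein genes tested, with bars of 1 SE, in the 3 comparisons of the limma voom fit; genes are ordered by HH27 against HH24, and dashed and dotted lines mark the medians of the 65 and of all genes tested. Most genes lie right of 0 in HH27 against HH24 (62 of 65) and left of 0 in HH24g against HH27 (58 of 65), and RPS12 alone is circled at an adjusted p under 0.05.

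HH24g was then compared with HH24, tissue of the same nominal age. Of the 65 genes, 54 had a positive log2 fold change, with a median of 0.11 against 0.02 over all genes tested. No ribosomal protein gene passed either rule, called or adjusted p under 0.05. Both rules passed 0.011% of all genes, a single gene, in the limma fit. At an unadjusted p under 0.05, 5 were higher and 1 lower in limma voom, and 5.21% of all genes were higher, so the count was near the background. Without HH24g replicate 2 the median of the 65 was 0.08, against 0.03 over all genes. edgeR's quasi-likelihood test passed none of the 65 and 0.166% of all genes, and DESeq2 none of the 65 and 2.15% of all genes. At an unadjusted p under 0.05 they had 4 and 8 of the 65 (6.15% and 12.3%), against 9.59% and 9.44% of all genes. Both grafts were above all 3 HH24 libraries for 25 of the 65, against 16.2% of all genes. That count was 39 without HH24g replicate 1, against 26.4% of all genes, and 29 without HH24 replicate 2, against 22.8%. The median without HH24 replicate 2 was 0.08, against 0.02 over all genes, and 49 of the 65 were positive.

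Beside RPS21, given above, 3 genes led the positive end of this comparison. RPS27L had the highest log2 fold change, 0.44 ± 0.34 (SE, adjusted p 0.663), from 13, 1 and 9 reads in HH24 and 31 and 50 reads in HH24g. RPL27A, a large-subunit protein, measured 679, 374 and 688 CPM in HH24 and 766 and 848 CPM in HH24g, with 0.36 ± 0.15 (adjusted p 0.413). Its log2 fold change was 0.25 without HH24 replicate 2. RPS23, a protein of the decoding centre, measured 741, 320 and 628 CPM in HH24, 658, 537 and 709 CPM in HH27, and 836 and 756 CPM in HH24g. Both grafts were above every other library, and the log2 fold change of 0.36 ± 0.20 against HH24 did not pass (adjusted p 0.550). It was 0.22 without HH24 replicate 2.

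RPLP0 went the other way. It is the backbone of the P-stalk, to which the RPLP1 and RPLP2 dimers bind (chromosome 15). It measured 787, 764 and 664 CPM in HH24, 694, 729 and 716 CPM in HH27, and 615 and 553 CPM in HH24g. Both stages overlapped, and both grafts were below all 6 other libraries. The log2 fold change of HH24g was -0.33 ± 0.09 (SE, adjusted p 0.222) against HH24 and -0.29 ± 0.08 (adjusted p 0.0949) against HH27, and neither passed. DESeq2 without HH24 replicate 2 passed the second (adjusted p 0.0393). Between HH27 and HH24 it was -0.03 ± 0.08 (adjusted p 0.888).

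The partners of RPLP0 in the stalk did not share this pattern. RPLP1 measured 624, 546 and 636 CPM in HH24, 714, 654 and 673 CPM in HH27, and 626 and 637 CPM in HH24g. RPLP2 measured 498, 304 and 458 CPM in HH24, 580, 556 and 542 CPM in HH27, and 548 and 541 CPM in HH24g. In both genes the grafts were close to or above HH24 replicates 1 and 3. RPL23A, a large-subunit protein near the exit of the tunnel, was the only other gene of the 65 with both grafts below the other 6 libraries: 805, 865 and 815 CPM in HH24, 810, 873 and 839 CPM in HH27, and 755 and 758 CPM in HH24g. Its log2 fold change against HH24 was -0.11 ± 0.07 (adjusted p 0.552). Such a pattern was held by 3.08% of ribosomal protein genes and 3.26% of all genes tested.

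HH24g was last compared with HH27, tissue of the stage of the host. Of the 65 genes, 58 had a negative log2 fold change, with a median of -0.11 against -0.01 over all genes tested. None was called, while 1.71% of all genes were. Without the fold limit RPS12 alone passed, against 3.18% of all genes. At an unadjusted p under 0.05, 7 were lower and none higher, near the 8.04% of all genes that were lower at that limit. In edgeR's quasi-likelihood test 3 were lower at that limit, against 4.41% of all genes, and none passed the adjusted one, against 1.54%. DESeq2 passed 2, RPL12 and RPS12 (3.08%), against 3.13% of all genes. Both grafts were below all 3 HH27 libraries for 32 of the 65, against 16.4% of all genes. Without HH24 replicate 2, which takes no part in the contrast but shares the estimate of the spread, the median was -0.10 and 14 of the 65 (21.5%) were lower at an unadjusted p under 0.05, against 7.20% of all genes, so that the reading of that count turned on this library. Without HH27 replicate 2 the count was 3, against 7.65%. All 3 HH27 libraries were above the other 5 for 23 of the 65 genes (35.4%), against 6.06% of all genes, and for 26 when HH24 replicate 2 was left out, against 7.78%.

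RPL12, which sits at the base of the P-stalk beside RPLP0 (chromosome 17), was next after RPS12 by adjusted p-value. It measured 546, 476 and 507 CPM in HH24, 561, 615 and 588 CPM in HH27, and 468 and 492 CPM in HH24g. HH27 was above all other libraries, and the grafts lay within or below HH24. The log2 fold change of HH24g against HH27 was -0.28 ± 0.07 (SE, adjusted p 0.0696), and DESeq2 passed it with and without HH24 replicate 2 (lowest adjusted p 0.00903).

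The lowest fold changes rested on scattered values. RPL35A, a large-subunit protein mutated in some patients with Diamond-Blackfan anaemia, measured 103, 62.4 and 93.9 CPM in HH24, 89.7, 130 and 122 CPM in HH27, and 39.9 and 110 CPM in HH24g. The grafts differed from each other more than the groups did, from 80 and 360 reads. The log2 fold change against HH27 was -0.63 ± 0.35 (adjusted p 0.407), but -0.01 without HH24g replicate 1 and -1.46 without HH24g replicate 2. RPL30, which in yeast represses the splicing of its own transcript, measured 58.8, 179 and 110 CPM in HH24, 95.0, 173 and 104 CPM in HH27, and 64.9 and 90.4 CPM in HH24g. It had -0.51 ± 0.29 (adjusted p 0.430) against HH27 and -0.13 ± 0.36 (adjusted p 0.923) against HH24.

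**Figure D3:**
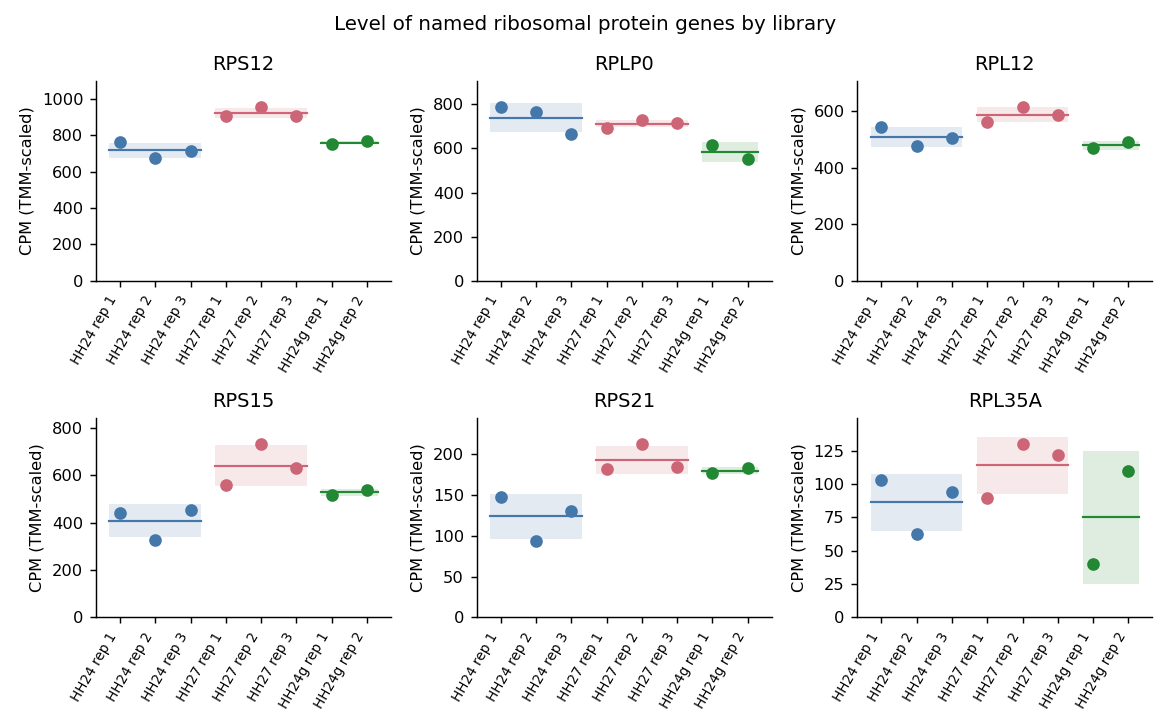
CPM (TMM-scaled, y axis from 0) of 6 ribosomal protein genes in each library; points are libraries, lines group means and bands 1 SD. RPS12 and RPL12 are highest in all 3 HH27 libraries, RPLP0 is lowest in both grafts (615 and 553 CPM), and the 2 grafts are far apart in RPL35A (39.9 and 110 CPM).

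Of the 65 genes, 4 lie on chromosome Z in GRCg7b: RPS6, RPL17, RPS23 and RPL37. Birds have ZZ males and ZW females, and Z genes are only partly evened out between the sexes. RPS6, the protein phosphorylated by the S6 kinases, measured 1709, 1653 and 1517 CPM in HH24, 1588, 1136 and 1641 CPM in HH27, and 1661 and 1535 CPM in HH24g. RPL17, which lines the exit tunnel, measured 923, 756 and 867 CPM in HH24, 814, 616 and 891 CPM in HH27, and 842 and 868 CPM in HH24g. In both genes HH27 replicate 2 was below every other library.

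These were the lowest log2 fold changes of the list for HH27 against HH24, -0.12 ± 0.14 (SE, adjusted p 0.747) for RPS6 and -0.14 ± 0.14 (adjusted p 0.686) for RPL17. Against HH27, HH24g measured 0.09 ± 0.13 (adjusted p 0.774) for RPS6 and 0.11 ± 0.12 (adjusted p 0.718) for RPL17, and 0.29 ± 0.17 (adjusted p 0.443) for RPS23, the highest of the list. RPS27L followed at 0.11 ± 0.21 (adjusted p 0.842). Without HH27 replicate 2 the log2 fold change of RPS6 was 0.00 for HH27 against HH24 and -0.02 for HH24g against HH27. RPL37, also on Z, measured 317, 203 and 311 CPM in HH24, 340, 376 and 369 CPM in HH27, and 331 and 354 CPM in HH24g, and HH27 replicate 2 was its highest library. RPS28, a small-subunit protein on chromosome 28, came next after RPL17, RPS6 and RPLP0 from the bottom for HH27 against HH24, with 195, 125 and 184 CPM in HH24, 203, 173 and 179 CPM in HH27, and 209 and 151 CPM in HH24g.

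Other sex chromosome genes moved with that library. In HH27 replicate 2 the median of 449 Z genes was 0.32 below that of 8593 autosomal genes, as the log2 difference from the mean of the other libraries (HH24 replicate 2 not in that mean), and 16 W genes were 1.29 above. In the other 7 libraries the Z median lay between -0.08 and 0.16. The W median was -1.66 in HH24 replicate 1 and -1.03 in HH24g replicate 1. The labels do not give the sex of the pooled embryos, and its part in these values was not tested. Leaving out the 4 Z genes, the medians were 0.22, 0.11 and -0.11 in the 3 comparisons, close to those of all 65 genes.

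**Figure D4:**
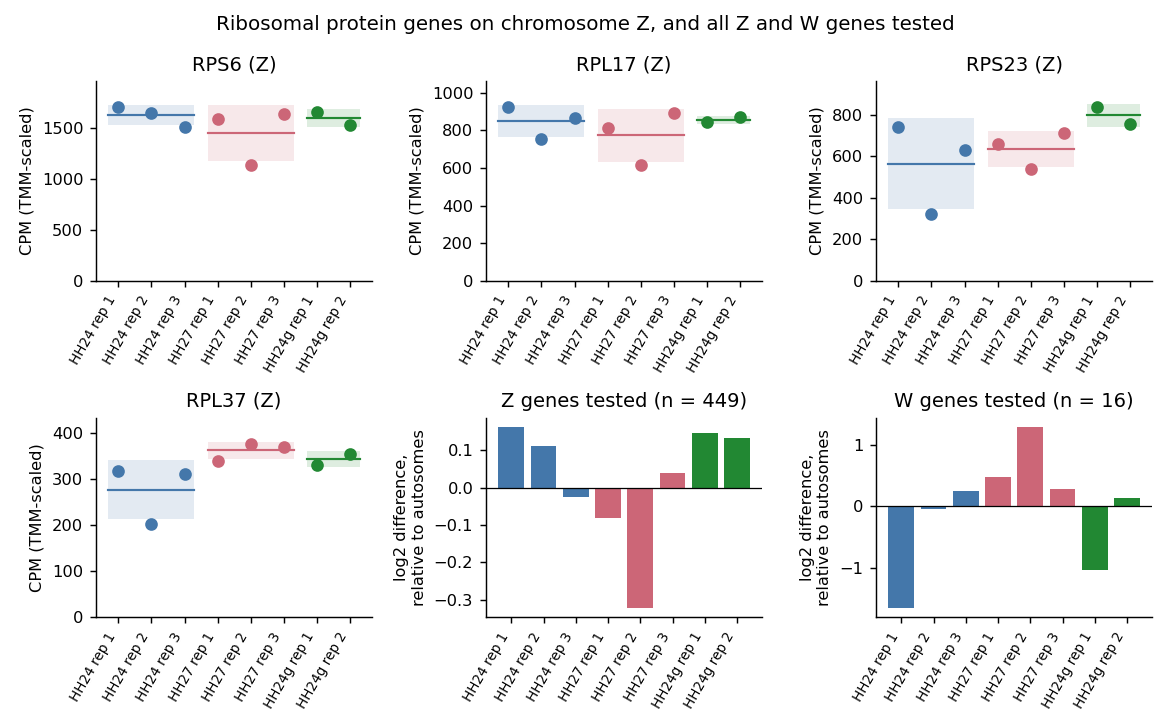
CPM (TMM-scaled, y axis from 0) of the 4 ribosomal protein genes on chromosome Z by library, with group means and bands of 1 SD, and bars of the median log2 difference of all Z and all W genes tested from autosomal genes. HH27 replicate 2 is lowest in RPS6 (1136 CPM), RPL17 (616 CPM) and the Z median (-0.32), and highest in the W median (1.29).

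HH24 replicate 2 had the largest scatter over the 65 genes and the largest counting error. Against the mean of HH24 replicates 1 and 3, 49 of the 65 genes were lower there and 16 higher, with a median log2 ratio of -0.43. Across the 65 genes, the SD of the log2 ratio to the other libraries of the group was 0.49, where counting gave 0.26. In the other libraries the SD was 0.12 to 0.30 and counting gave 0.04 to 0.09. Counting error here is that of the library's own reads, while the ratio also carries that of the libraries it is set against. For HH24 replicates 1 and 3 these include HH24 replicate 2. The grafts were set against each other and share 1 SD, 0.22. Spearman's rho of the per-length levels over the 65 genes was 0.743 to 0.820 in the 7 pairs of libraries with HH24 replicate 2 and 0.901 to 0.986 in the 21 others (points are genes of the same libraries). Named after their values were seen, RPS16 had 20 reads there where the other HH24 libraries imply 62.2, and RPL14 had 105 where they imply 64.8.

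Other lists of the translation machinery had other medians. Of 16 further TOP genes tested, 8 had a positive and 8 a negative log2 fold change in HH27 against HH24 (median -0.01). Among them NPM1, a nucleolar chaperone of ribosome assembly, measured 2617, 3461 and 2966 CPM in HH24, 2219, 2038 and 2038 CPM in HH27, and 2679 and 2749 CPM in HH24g. It fell at HH27, at -0.46 ± 0.08 against HH24 (SE, adjusted p 0.0293), and was higher in HH24g than in HH27 by 0.37 ± 0.08 (adjusted p 0.0355). The grafts lay within the HH24 libraries. These calls held in 14 and 10 of 22 alternatives and were lost, among others, without HH24 replicate 3 (adjusted p 0.177 and 0.0756) and without HH27 replicate 2 (0.0758 and 0.101). With no TMM factor the first was 0.11.

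The most abundant of the other listed genes did not pass in any comparison of the limma fit. RACK1, a scaffold on the small subunit, measured 826 to 1207 CPM in HH24, 1256 to 1328 CPM in HH27, and 1125 and 1092 CPM in HH24g. EEF2, the factor of translocation, measured 1715 to 2353 CPM in HH24, 2324 to 2425 CPM in HH27, and 2181 and 1970 CPM in HH24g. In RACK1 all HH27 libraries were above all others. EIF4G2, an initiation factor, measured 2861 to 3135 CPM in HH24, 2835 to 3306 CPM in HH27, and 3112 and 3149 CPM in HH24g.

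Most ribosome biogenesis genes lay on the other side of 0 in the 2 comparisons with HH24. Of 50 tested, 43 had a negative log2 fold change in HH27 against HH24, with a median of -0.23, and 41 in HH24g against HH24, with a median of -0.13. In HH24g against HH27 they were split, 27 positive and 23 negative, with a median of 0.06. Only NOL8, a nucleolar protein, passed the adjusted limit in HH27 against HH24 (4.86 ± 0.87, adjusted p 0.0306), and it was higher in HH27. It measured 0, 15.6 and 5.87 CPM in HH24, 72.8, 76.7 and 70.6 CPM in HH27, and 78.9 and 88.6 CPM in HH24g. The grafts were thus with HH27 and above all HH24 libraries, at 5.08 ± 0.87 against HH24 (adjusted p 0.0919) and 0.21 ± 0.15 against HH27 (adjusted p 0.541). The call in HH27 against HH24 was lost in 9 of 21 alternatives (adjusted p 0.143 without HH24 replicate 2). Of 27 initiation factors 19 were negative (median -0.12), and of 63 mitochondrial ribosomal protein genes 33 were positive and 30 negative (median 0.01), with none past the adjusted limit in HH27 against HH24. The 582 other genes under 1000 nt, a length class that holds most ribosomal protein genes (median 654 nt), had a median of 0.00 in that comparison.

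**Figure D5:**
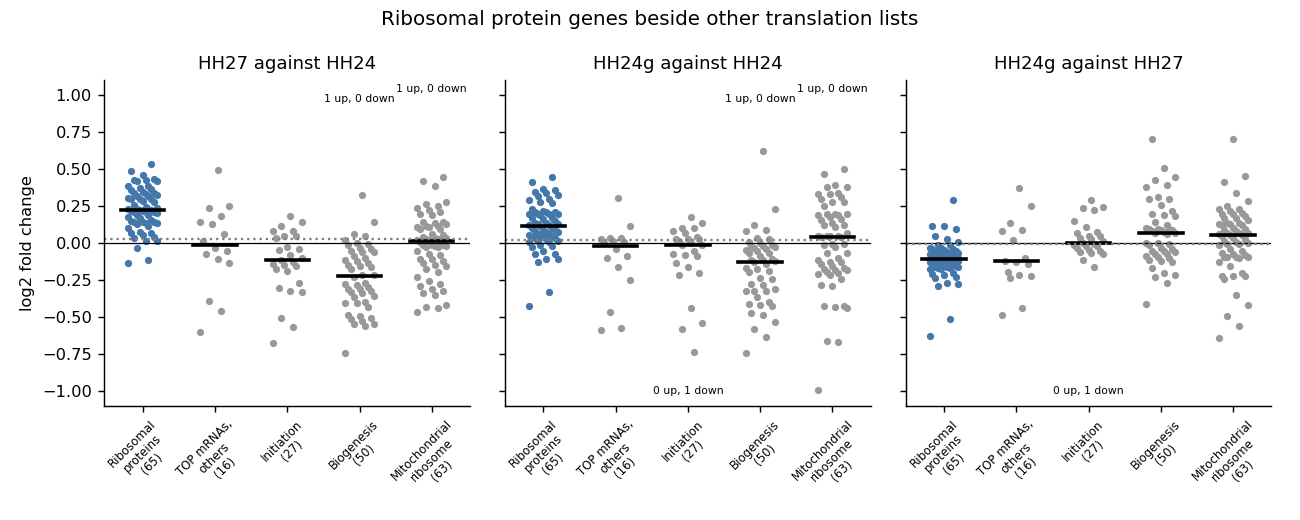
Log2 fold change (y axis) of the ribosomal protein genes and of 4 other lists of the translation machinery in the 3 comparisons; points are genes, thick lines list medians, the dotted line the median of all genes tested, and counts in small type give genes beyond the axis. In HH27 against HH24 the ribosomal proteins have a median of 0.22 and the biogenesis genes one of -0.23.

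Red blood cell genes differed between the groups too, with the grafts near HH27. The 6 erythroid markers with transcripts, 5 of them tested, summed to 2750 to 3323 CPM in HH24, 302 to 1624 CPM in HH27 and 549 to 1022 CPM in HH24g, so HH24 was above the other groups. Of the 5 tested, 4 were lower and 1 higher in HH27 against HH24, and also in HH24g against HH24. None passed the adjusted limit in limma voom (smallest adjusted p 0.147 and 0.241). With haemoglobin, mitochondrial and ribosomal RNA genes removed before scaling, the medians of the ribosomal protein genes were 0.22, 0.11 and -0.11, as before. The 6 ectoderm markers with transcripts summed to 156 to 174 CPM in HH24, 173 to 200 CPM in HH27 and 142 to 177 CPM in HH24g, and the 6 endothelial markers to 110 to 164, 135 to 140 and 177 to 182 CPM. The 3 leukocyte markers summed to 15.6 to 20.3, 16.5 to 21.8 and 24.96 to 28.7 CPM. Of these lists, HBBA, HBE1, FGF8, KRT14, KRT5, TP63, PECAM1, EGFL7, PTPRC and SPI1 were at 0 in at least 1 library. The part of these cell types in the ribosomal protein levels was not tested.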

How the data were processed

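The deposited tables, 1 for each of the 8 libraries, list transcripts with the authors' estimated counts and TPM. The submitters' processing notes name HISAT2 2.0.2, Salmon, limma and the build galGal4, and which program made the tables is not given in the sources used here. The deposited TPM values, which the authors scaled to a common total, keep no depth and were not tested. The deposited transcript lengths served to scale levels per length. The study describes 3 replicate experiments for each condition and excluded 1 HH24 and 1 HH24g library after quality control. The series holds 3 HH24 and 2 HH24g libraries. If 3 libraries were made for each, the excluded HH24 library is among the 3 in the series and the excluded graft is not. The labels do not say which HH24 library it was, so all 8 were used. The ribosomal protein genes and lists were chosen with earlier results of these data known.

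Accessions without version were matched to RefSeq names of GRCg7b: 26660 of 57399 transcripts matched, giving 14612 genes. Of the genes described, 55 of 66 had 1 transcript. Estimated counts were summed per gene, rounded and filtered with filterByExpr (minimum count 10, total 15). After TMM scaling, limma's voom weights entered a linear model of the 8 libraries with a mean for each group. Adjusted p-values are Benjamini-Hochberg values over the 9062 genes tested and come from this fit unless another tool is named. The fits were also run on simulated counts with changes larger than those of the ribosomal protein genes. That run cannot show how the fits treat shifts as small as theirs. Alternatives were edgeR, DESeq2, other scalings, filters and features, quality weights, a replicate block and each library left out.

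Named genes were those at adjusted p under 0.05, the 4 highest and 4 lowest fold changes in each comparison, the 5 highest and 3 lowest levels, the P-stalk genes, RPS6 and RPS27L, of the lists the genes at adjusted p under 0.05 and 4 others by level, and the genes left out by name. Some genes that this rule names are not reported here. Tables were made in Python 3.11.15 with pandas 2.3.3, figures with matplotlib 3.10.9, and fits in R 4.3.3 with DESeq2 1.42.0, edgeR 4.0.16 and limma 3.58.1.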

Additional observations from a re-analysis of the deposited data

How the results depend on the processing

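The fold changes and calls were recomputed under 22 alternatives (RPS27L, RPL35A and NOL8 under 21). Of all alternatives, edgeR and DESeq2 without HH24 replicate 2, the removal of Z genes, and those of the summed shares and of the counts of genes that do not overlap were chosen after seeing the data. No ribosomal protein gene was called under any alternative. The number at an adjusted p under 0.05 in HH27 against HH24 (1) became 0 with edgeR, with all libraries or without HH24 replicate 2. It also became 0 with no TMM factor, no filter, only the groups compared and unmatched transcripts added. Of all genes, 161 of 9062 passed in the limma fit. With edgeR 159 of 9062 passed, and without HH24 replicate 2 155 of 9384. With no TMM factor 15 of 9062 passed and with no filter 120 of 13243. With only the groups compared 162 of 7988 passed, and with unmatched transcripts 45 of 17903. The number of ribosomal protein genes was 5 with 10 counts in every library (7.94% against 7.55% of all genes) and 6 with DESeq2 (9.23% against 4.31%). With DESeq2 without HH24 replicate 2 it was 14 (21.5% against 4.62%). With single HH24 or HH27 libraries left out it was 0 to 1, and 25 to 120 of all genes passed. RPS15 and not RPS12 passed without HH27 replicate 1. With 1 graft left, it is assumed to vary like the other groups. In HH24g against HH27 the number (1) became 0 with edgeR (both sets of libraries), no TMM factor, no filter, only the groups compared, unmatched transcripts and quality weights. Of all genes, 140 of 9062 passed there with edgeR, 162 of 9384 with edgeR without HH24 replicate 2, and 24 of 9062 with no TMM factor. With no filter 215 of 13243 passed, and with only the groups compared 166 of 9603. With unmatched transcripts 205 of 17903 passed, and with quality weights 254 of 9062. The number was 2 with DESeq2 (3.08% against 3.13%) and 4 with DESeq2 without HH24 replicate 2 (6.15% against 3.91%). With single HH24 or HH27 libraries left out it was 0 to 1, and 201 to 266 of all genes passed. The medians of the ribosomal protein genes were held against the pooled SD of the library medians within groups, 0.129 (log2). That SD is wider than the medians of 0.11 and -0.11 in the HH24g comparisons, so it cannot show that these held. The medians moved by more than it with no TMM factor only, to 0.87 in HH27 against HH24 and 0.76 in HH24g against HH24. There the numbers that do not overlap rose from 36 to 60 and from 25 to 60, while those of all genes rose from 13.7% to 38.4% and from 16.2% to 46.2%. The latter count of ribosomal protein genes ranged from 29 to 39 with single libraries left out. Such counts rise for every gene with fewer libraries. Where it was 29, without HH24 replicate 2, the share of all genes was 22.8%, and the share beside the 39 is given above. The mean TMM-scaled shares became 3.37% (HH24), 5.65% (HH27) and 5.23% (HH24g) with no TMM factor. Of all reads in place of gene reads, the shares were 1.46%, 3.43% and 3.38%. The HH24g share was 5.36% with like genes put in and 5.16% with paralogs left out. Signs turned with no TMM factor for HH27 against HH24 in RPL17 (0.46), RPS6 (0.44), RPLP0 (0.56) and NPM1 (0.11), and for HH24g against HH24 in RPL35A (0.066), RPLP0 (0.28), RPL30 (0.17) and RPL23A (0.49). RPLP0 in HH27 against HH24 was also 0.0058 with 10 counts in every library and ranged from -0.14 to 0.051 with single libraries left out. Signs also turned with single libraries left out for RPS6 in HH27 against HH24 (-0.22 to 0.0033), RPL35A (-1.26 to 0.19) and RPL30 (-0.58 to 0.18) in HH24g against HH24, and RPS6 in HH24g against HH27 (-0.024 to 0.19). The cause was not tested.

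Deviations of same-numbered libraries from their group means had correlations of 0.01, 0.04 and 0.03 between HH24 and HH27. Between HH27 and HH24g they were 0.0065 and -0.022. With 2 or 3 libraries in a group such values cannot show whether libraries are paired. The HH27 tissue came from the host wing opposite the graft, so HH27 and HH24g libraries may share host embryos, which the labels do not give. With the replicate number as a block, RPS12 did not pass in either comparison (count 0), nor did NOL8 in HH27 against HH24 or NPM1 in HH24g against HH27, and the medians were 0.22, 0.12 and -0.12. Of 9062 genes, 193 passed in HH27 against HH24 and 244 in HH24g against HH27 in that fit. Reads matched to genes were fewest in HH24 replicate 2, where the median ribosomal protein gene had 58 reads. Its total of 3108086 reads, matched or not, was above those of HH24 replicates 1 (2157683) and 3 (1855991).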

Other observations

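Of the 13 genes left out by name, 11 passed the filter and none passed the adjusted limit in any comparison. RPL26L1, for which the gene table also gives the name RPL26, measured 659 to 819 CPM in HH24, 766 to 869 CPM in HH27, and 691 and 746 CPM in HH24g. RPL22L1, a paralog of RPL22, measured 170 to 218 CPM in HH24, 185 to 233 CPM in HH27, and 160 and 229 CPM in HH24g. RPL7L1, which in human cells acts in the assembly of the large subunit, measured 172 to 216 CPM in HH24, 170 to 188 CPM in HH27, and 207 and 215 CPM in HH24g. RPS19BP1 measured 23.4 to 34.2, 31.2 to 40.8, and 23.5 and 31.5 CPM in these groups. The S6 kinase gene RPS6KB1, whose product phosphorylates RPS6, measured 61.6 to 93.5 CPM in HH24, 44.7 to 60.5 CPM in HH27, and 52.9 and 68.4 CPM in HH24g. RPS6KC1 was at 0 in HH24 replicates 1 and 2 and measured 69.4 CPM in HH24 replicate 3 and 69.7 to 85.2 CPM in the HH27 and HH24g libraries.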
